A study of Homo sapiens with 4 samples.

Results

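Circles of 6 to 11 exons are circular RNAs in which the 3′ end of a downstream exon is joined to the 5′ start of an upstream exon of the same gene, with 4 to 9 further exons spliced between them. They were taken from the deposited table of circular RNA isoforms by 4 criteria: the circle was typed as exonic, lay outside the mitochondrial genome, named a single host gene, and held a single internal isoform of 6 to 11 exon blocks. With at least 1 count over the 4 libraries, 27724 circles met them, out of 190152 circles with a count in the whole table. All 4 libraries came from MDA-MB-468, a human basal-like breast cancer line, made radiation resistant by fractionated doses adding up to 50 Gy. The 2 control libraries carried the hairpin shCtrl, and the 2 knockdown libraries carried a stable hairpin against HNRNPL, named shHNRNPL-1 in the extraction label. Resistance was thus shared by both groups, and cells without it were not analysed here. The submitters call each pair biological replicates. That HNRNPL was reduced rests on the labels, since no HNRNPL value was analysed here, and with a single hairpin named, effects of the hairpin itself cannot be told apart from those of the knockdown.

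A circular RNA forms when the spliceosome joins a splice donor to an acceptor upstream of it, a reaction called back-splicing. Circles lack free ends and are therefore resistant to exonucleases, and many outlast the linear RNA of their gene. HNRNPL is a nuclear RNA-binding protein that favours CA-rich RNA, regulates alternative splicing and has been linked to back-splicing. Short-read methods usually see only the back-splice junction, whereas reads from rolling reverse transcription cover the whole circle, so the number of internal exons can be read directly.

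The deposited table gives, for most circles, a short run of bases found at both ends of the back splice, between which the junction cannot be placed exactly. The table's header does not define this column further. The runs below are shown because they are the only back-splice letters given here. Among circles outside chromosome 8 with at least 10 counts, each of the 6 longest runs, ties ordered by count, held AGGT. These are the acceptor letters AG followed by the donor letters GT. The runs of KIF18A and ECT2, from 2 of the 10 most abundant circles, held them too. Capitals mark AGGT, and each run is written 5′ to 3′ on the strand of the circle.
GLRX3: atttacAGGT
MBOAT2: tttacAGGT
PUM2: tatAGGTg
ACTR3B: taAGGTat
PARD3: gacAGGTa
PIK3R4: cAGGTtgt
KIF18A: aAGGTa
ECT2: AGGT
In GRCh38.p14 the GLRX3 circle of 11 exons spans chr10:130145211-130180321 on the plus strand. The MBOAT2 circle of 11 exons spans chr2:8860613-8958642 on the minus strand. Both were sparse, GLRX3 with 5 and 15 counts in the controls and 1 and 3 in the knockdown libraries, MBOAT2 with 2 and 16 against 1 and 4. Such long runs were rare. A run of at least 6 bases was given for 402 circles of 6 to 11 exons (1.45%), the median run was 2 bases, and 24.2% of the circles had none. AG alone was the commonest run (5385 circles, 19.4%), followed by G alone (5087, 18.3%) and AGG (2420, 8.73%). The letters AGGT occurred within the run of 1932 circles (6.97%), against 6.72% of circles of 2 to 5 exons, 6.60% of circles of 12 or more and 1.91% of 1-exon circles. Of the circles on the minus strand, 45.3% had a run with AG and 0.132% a run with CT, which shows that the letters follow the strand of the circle.

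The splice motif was recorded for the same circles. An AG acceptor with a GT donor at an offset of 0 and with no asterisk was recorded for 61.4% of circles of 6 to 11 exons. The corresponding share was 57.5% for 2 to 5 exons, 58.6% for 12 or more and 12.3% for 1-exon circles. Allowing any offset and asterisk, 91.8% of the circles of 6 to 11 exons carried AG-GT. The headers do not say what the offset and the asterisk stand for, and no test was run on these shares, since circles of 1 host share splice sites.

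Circle length grew with the number of exons while the exons themselves kept the same size. The median length was 1140 nt (interquartile range 894 to 1504, extremes 340 and 9516), and it went from 861 nt at 6 exons through 982, 1111, 1248 and 1370 nt to 1500 nt at 11 exons. The median exon measured 125 nt (interquartile range 91 to 166) and its median stayed between 124 and 127 nt at every exon number. Circles of 2 to 5 exons were shorter, with a median of 731 nt, and circles of 12 or more were longer, at 2185 nt. Single-exon circles, at 1231 nt, were longer than the median circle of 8 exons. The distance between the back-spliced sites was a median of 21196.5 nt in the genome, of which the exons kept a median of 5.68%. The circle length was a multiple of 3 in 35.3% of cases.

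The 27724 circles came from 3802 host genes, and 99.7% of them from protein-coding ones. A host gave a median of 4 such circles, 937 hosts gave 1, and the 918 hosts with at least 10 accounted for 18204 circles (65.7%). BIRC6, which encodes a giant inhibitor of apoptosis, gave 122, USP34, a deubiquitinase, 88, SYNE2, a giant nuclear envelope protein, 80, DNAH14, an axonemal dynein heavy chain, 77 and CEP192, a centrosome scaffold, 74. Of the circles whose host was matched by symbol in the RefSeq gene table (27650), 27388 lay inside the gene, with the acceptor a median of 34870 nt from the gene's start and the donor 19338.5 nt from its end. Splice sites were reused, as 48.3% of the circles shared their acceptor with another circle of 6 to 11 exons and 47.9% their donor. Detection was sparse at this depth, as 12598 circles were seen in 1 library, 3375 in all 4, and 3887 (14%) rested on 1 count. Another 1989 circles were seen in both control libraries and in neither knockdown library, and 2255 in both knockdown libraries and in neither control. The corresponding counts were 1608 and 1864 among the 22100 circles of 2 to 5 exons. Among the 14854 circles of 12 or more exons they were 1041 and 1364. Such counts were thus not particular to circles of 6 to 11 exons.

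APLF, a factor of DNA end joining, was 1 of the hosts in which many circles started at 1 acceptor. From position 68490190 on chromosome 2, plus strand, 9 circles of 6 to 11 exons reached different donors and held 1040 counts. A single one of them, the 7-exon circle chr2:68490190-68545312 of 1190 nt, held 83 and 271 counts in the controls and 146 and 250 in the knockdown libraries, or 17.6, 48.7, 51.6 and 64.0 per 100000 library counts. The 9 circles together gave 20.7, 66.3, 77.5 and 90.6 per 100000. The knockdown libraries were the highest, and control replicate 1 was far below control replicate 2.

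FANCB, a subunit of the Fanconi anemia core complex that acts on DNA crosslinks, showed the mirror case with 11 circles ending at 1 donor, position 14843660 of chromosome X on the minus strand. Its 7-exon circle chrX:14843660-14859334 (1536 nt) held 27 and 72 counts in the controls and 204 and 307 in the knockdown libraries. Its 9-exon circle chrX:14843660-14869043 takes in the same 7 exons and 2 more upstream, one of them of 1021 nt, and held 3 and 15 counts against 62 and 102. All 11 circles together had 8.47 and 21.0 counts per 100000 in the controls and 112 and 125 in the knockdown libraries. In 9 of the 11 both knockdown libraries were above both controls and in none were both below. Of these 9, 4 had 0 counts in the controls and 10 or fewer counts in all. Over all circles with at least 40 counts, 29.7% had both knockdown libraries above both controls. The share among sparser circles was not computed. The larger pair of circles had fitted log2 fold changes of 3.03 ± 0.41 (SE) and 3.83 ± 0.57 (adjusted p = 0.0857 and 0.0862 in edgeR's quasi-likelihood test), short of the 0.05 threshold.

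Library totals were 472428 and 556578 counts for control and 282737 and 390547 for knockdown, and circles of 6 to 11 exons held 56822, 83861, 39951 and 56946 of them. Epithelial markers fixed for the line were seen as circles from EGFR, CDH1 and EPCAM, while KRT5, KRT17, KRT18 and KRT19 had 0 counts in every library, as had the 6 markers of other cells (PTPRC, CD3E, PECAM1, COL1A1, COL1A2 and ALB) and RB1 and SMAD4, known to be deleted in this line. The summed counts of the epithelial markers were 69, 20, 14 and 16, so control replicate 1 stood apart. Over the 793 circles of 6 to 11 exons with at least 40 counts, the controls differed from each other by a median of 0.78 on the log2 scale (pseudocount 0.5 per 100000) and the knockdown libraries by 0.34, and control replicate 2 was the higher control for 77.6% of them.

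The weight of the class in the circular transcriptome did not separate the groups. It held 12% and 15.1% of the counts in the controls and 14.1% and 14.6% in the knockdown libraries, or 13.5% ± 2.15 against 14.4% ± 0.319 (SD, n = 2 each), and the knockdown values lay between the 2 controls (p = 1, exact two-sided permutation test, in which 2 against 2 libraries cannot go below 0.333). Thinned to 282737 counts, the libraries showed 11771, 11101, 10826 and 11160 different circles, a ratio of 0.961 (exact permutation p = 0.667). The count-weighted mean exon number was 8.02, 8.10, 8.11 and 8.08 (exact permutation p = 0.667) and the count-weighted median length 1152, 1129, 1140 and 1128 nt (exact permutation p = 0.667). None of these differences exceeded the spread between replicates.

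**Figure D1:**
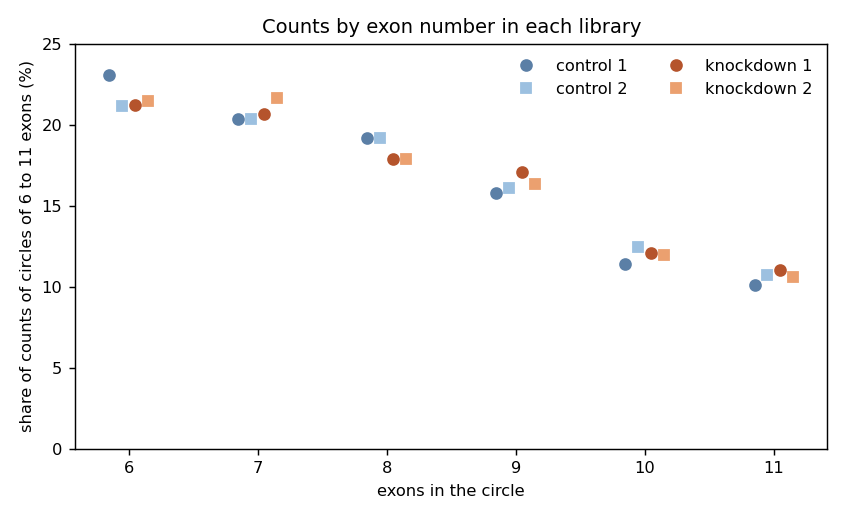
Share of the counts of circles of 6 to 11 exons (vertical axis, percent) held by circles of each exon number (horizontal axis), 1 point per library. The shares fall from 7 to 11 exons in all 4 libraries, with knockdown replicate 2 slightly higher at 7 exons than at 6, and at 8 exons both controls, at 19.2%, lie above both knockdown libraries, at 17.9%.

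Within the class the share of counts fell from 7 to 11 exons in each library, and went from 23.1%, 21.2%, 21.2% and 21.5% at 6 exons to 10.1%, 10.7%, 11% and 10.6% at 11 exons. Groups did not overlap at 3 of the 6 exon numbers. Circles of 8 exons held 19.2% in both controls and 17.9% in both knockdown libraries. Those of 7 exons held 20.4% and 20.3% against 20.7% and 21.7%, and those of 9 exons 15.8% and 16.1% against 17.1% and 16.4%. Each gave the smallest p that the design allows (0.333, exact permutation test) and none can pass 0.05.

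The 10 most abundant circles came from 10 genes, and the control libraries were often far apart. The circle of PALS2, a membrane-associated guanylate kinase scaffold, joined 8 exons in 1116 nt (chr7:24623666-24668660) and held 299 and 1673 counts in the controls and 527 and 849 in the knockdown libraries. Per 100000 library counts these were 63.3, 301, 186 and 217, so both knockdown libraries lay between the controls. The PICALM circle, from a clathrin assembly protein, joined 11 exons in 1128 nt (chr11:85996826-86031611) and stood at 39.8, 173, 226 and 235 per 100000. Here both knockdown libraries were higher than both controls, but the gap from control replicate 2 was smaller than the gap between the controls (log2 fold change 1.20 ± 0.56, adjusted p = 0.430). ZMYM4, a zinc finger gene, had the third, of 8 exons, at 167, 234, 131 and 141 per 100000. It was lower in the knockdown libraries, again within the spread of the controls (−0.59 ± 0.31, adjusted p = 0.430).

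XPO1 and SENP6 departed from that pattern. The XPO1 circle of 7 exons, from the gene of the main nuclear export receptor, spanned chr2:61482380-61490776 and held 15.9 and 37.4 counts per 100000 in the controls and 145 and 165 in the knockdown libraries, a mean of 26.6 ± 15.2 against 155 ± 14.7 (SD, n = 2 each). The SENP6 circle of 9 exons, from a gene of a SUMO protease, spanned chr6:75659262-75678927 and held 4.87 and 20.5 against 148 and 149. Both knockdown libraries were several times above the higher control. The log2 fold changes were 2.57 ± 0.41 for XPO1 (adjusted p = 0.0899) and 3.61 ± 0.59 for SENP6 (adjusted p = 0.0911). With the filter of at least 5 counts in 2 libraries the adjusted p-values were 0.00906 and 0.00835. With edgeR's newer dispersion method they were 0.0977 and 0.101, and with library-size scaling no circle of the class passed.

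The other 5 of the 10 most abundant circles had adjusted p-values of at least 0.430. NIPBL, the cohesin loader, stood at 69.2 and 56.8 against 94.1 and 91.7 per 100000 (8 exons), and SEPTIN10, a septin GTPase, at 69.6 and 103 against 53.4 and 63.5 (7 exons). Groups did not overlap for these genes but overlapped for the rest, VRK1, a nuclear kinase (10 exons), ECT2, an exchange factor of cytokinesis (10 exons), and KIF18A, a mitotic kinesin (7 exons). The most abundant circle of 6 exons came from UBA2, a subunit of the SUMO-activating enzyme, at 34.5 and 71.9 against 31.5 and 40.5 per 100000. The 10 most abundant circles of each library held 5.68% and 8.72% of the class counts in the controls and 9.01% and 9.32% in the knockdown libraries (exact permutation p = 0.333, the smallest possible).

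**Figure D2:**
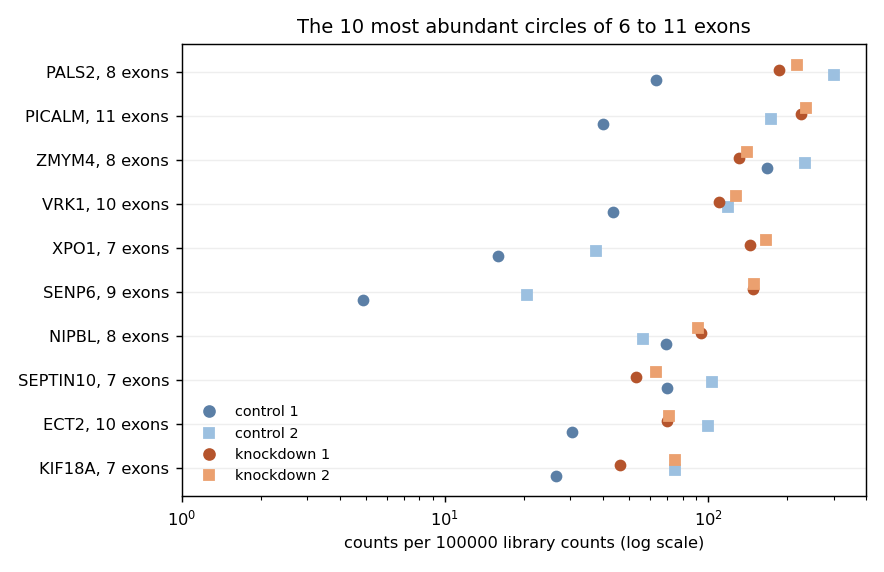
Counts per 100000 library counts (horizontal axis, log scale) of the 10 most abundant circles of 6 to 11 exons, 1 symbol per library. SENP6 and XPO1 show both knockdown libraries above 140 and both controls below 40, while for most others control replicate 1 is the lowest point.

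Tested one by one over the whole table, no circle of 6 to 11 exons passed the threshold. Of the 3970 with at least 10 counts, which held 69.3% of the class counts, 0 had an adjusted p under 0.05 (edgeR quasi-likelihood F test, Benjamini-Hochberg over 21576 circles), and the share called over all circles was 0%. At an unadjusted p under 0.05, 395 were higher in the knockdown libraries (9.95%, against 9.42% of all circles tested) and 141 lower (3.55%, against 4%). The class was thus close to the background in both directions. The median log2 fold change was −0.19 for the class and −0.39 for all circles. Scaling by library size in place of TMM moved these to −0.32 and −0.51.

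The number of calls depended on the filter, the tool and the libraries. Requiring at least 5 counts in each of 2 libraries gave 257 called circles of 2201 tested, 227 higher (10.4% of all circles tested that way were called higher) and 30 lower (1.55%), and DESeq2 called 164 (4.13%, against 4.88% of all circles). Without control replicate 1 the count was 748 (24.3%, against 28.1%), without control replicate 2 it was 939 (36.7%, against 43.2%), and without either knockdown library it was 0, each time with the lone library assumed to vary like the other group.

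Replicate separation, which needs no model, also put the class close to the table, but with nearly equal numbers higher and lower. Among the 793 circles of 6 to 11 exons with at least 40 counts, both knockdown libraries were above both controls for 230 (29%) and below for 227 (28.6%). Over all 4944 circles of that depth the shares were 29.7% and 28.9%. A ratio of means of at least 4-fold with groups apart was met by 100 of the 230 and by 18 of the 227. In all circles of that depth it was met by 601 of the 1470 higher and 156 of the 1427 lower. Large differences thus lay mostly on the higher side, in the class as in the table.

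The 6 higher circles with the smallest p-values included 2 that were not detected in the controls. The CCDC7 circle of 6 exons (chr10:32451592-32474023, 659 nt) held 7 and 17 counts in the controls and 123 and 223 in the knockdown libraries. Its levels of 1.48, 3.05, 43.5 and 57.1 per 100000 gave a log2 fold change of 4.45 ± 0.45 and an adjusted p of 0.0761. That was the lowest adjusted p of the class, and the VPS13A and EXOC6 circles described below shared it. A second XPO1 circle, of 8 exons upstream of the first (chr2:61498673-61533903, 769 nt), held 10 and 24 against 86 and 141 counts (3.36 ± 0.42, adjusted p = 0.0838). XPO1 therefore had at least 2 circles, made of different exons, that were higher in both knockdown libraries.

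Membrane transport genes gave 3 of the 6. VPS13A and VPS13C encode bridge-like proteins that carry lipids between membranes. The VPS13A circle of 6 exons (chr9:77238002-77260224) held 1 and 1 counts in the controls and 46 and 57 in the knockdown libraries, a ratio of 78.7 with a 95% exact interval of 21.2 to 659 that covers counting error only. The VPS13C circle of 11 exons (chr15:62000564-62035052) held 0 and 0 against 26 and 34 counts. Set against the 3 counts per library that a count of 0 allows, it was at least 15.2-fold higher. EXOC6 encodes a subunit of the exocyst, which tethers secretory vesicles at the plasma membrane. Its circle of 7 exons (chr10:92893349-92920050, 787 nt) held 0 and 0 against 40 and 63 counts and was at least 25.8-fold higher by the same floor. Both bounds take the knockdown mean as observed, and leave out its counting error and the spread between replicates. The sixth came from ESCO1, a cohesin acetyltransferase, and was unusual in structure, with an exon of 2117 nt in a circle of 2646 nt. It held 1 and 3 counts against 31 and 41 (chr18:21560859-21575777, 4.69 ± 0.55, adjusted p = 0.0838).

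The 6 lower circles had larger p-values than the 6 higher ones. The RNF19A circle of 6 exons, from a ubiquitin ligase gene on chromosome 8, held 103 and 111 counts in the controls and 12 and 8 in the knockdown libraries (−2.83 ± 0.50, adjusted p = 0.0982). The UBR1 circle of 6 exons, from the ligase of the N-degron pathway (chr15:42950262-42966286), held 83 and 77 against 10 and 13 (−2.27 ± 0.47, adjusted p = 0.124). In these the controls were close to each other per library count and well above both knockdown libraries. CIP2A encodes an inhibitor of the phosphatase PP2A, and its circle of 10 exons (chr3:108568155-108585749) held 24 and 59 against 4 and 4 counts (−2.67 ± 0.54, adjusted p = 0.117). CHKA encodes choline kinase, the first enzyme of phosphatidylcholine synthesis, and its circle of 9 exons (chr11:68061953-68081457) held 29 and 44 against 4 and 7 (−2.12 ± 0.48, adjusted p = 0.146).

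Both remaining circles nearly vanished from the knockdown libraries. GCLC encodes the catalytic subunit of the enzyme that starts glutathione synthesis. Its circle of 10 exons (chr6:53498607-53509250) held 20 and 35 counts in the controls and 1 and 0 in the knockdown libraries, a ratio of 0.0278 (95% exact interval 0.000691 to 0.161, counting error only). TPM4 encodes a tropomyosin, and its circle of 8 exons (chr19:16080915-16101409) held 32 and 21 against 1 and 2 counts, a ratio of 0.0865 (0.0173 to 0.267). All 12 of these circles were picked by their p-values, so their separation is a description.

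**Figure D3:**
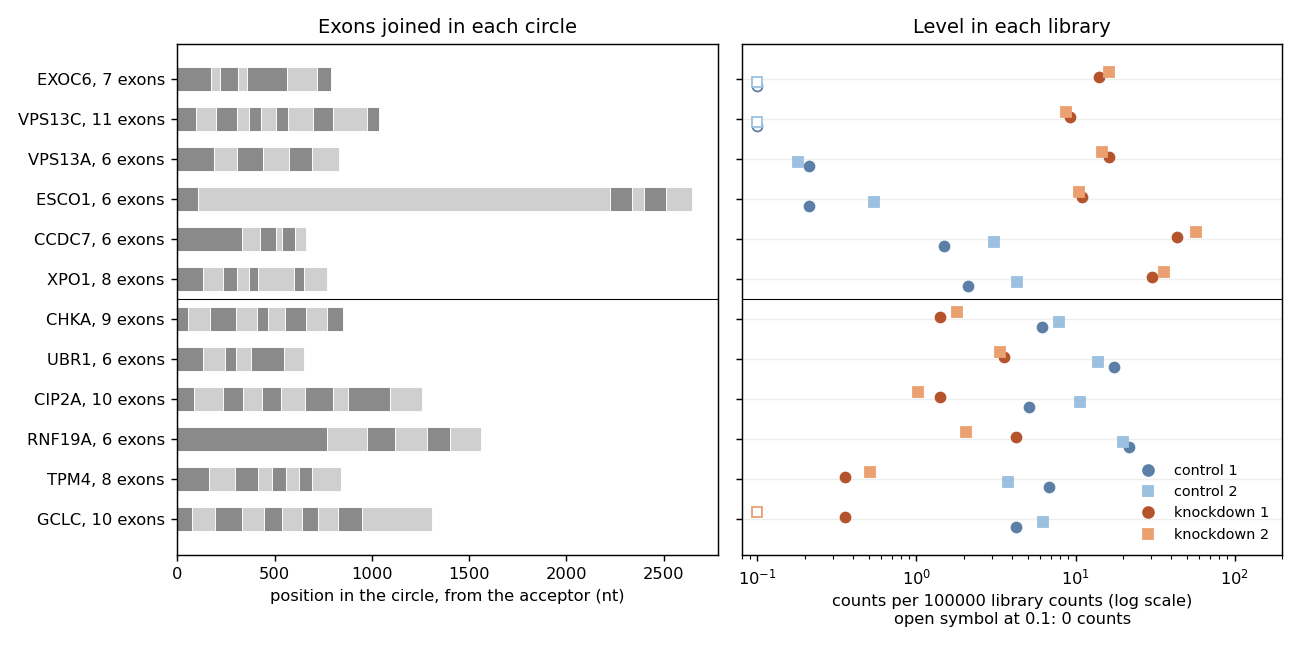
Left, exon lengths in order from the acceptor for the 6 higher circles (above the line) and the 6 lower ones (below it), with alternating shades for successive exons (horizontal axis, nt). Right, counts per 100000 library counts of the same circles (log scale), 1 symbol per library and open symbols for 0 counts: knockdown libraries are right of both controls in the upper 6 and left of both in the lower 6.

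Summed by host gene, the circles of 6 to 11 exons gave calls, all upward. Of 2244 host sums with at least 10 counts, 32 rose in the knockdown libraries (1.43%) and 0 fell at an adjusted p under 0.05 (edgeR quasi-likelihood test over 9451 sums of all exon-number classes). Over all sums the shares were 1.44% higher and 0.0106% lower, so the class was close to the background. Linear RNA of the hosts was not analysed here, so more back-splicing and more RNA of the host cannot be told apart. At an unadjusted p under 0.05, 208 were higher and 187 lower, against 10% and 7.47% of all sums. The median log2 fold change was −0.32, or −0.57 under library-size scaling, beside −0.25 and −0.51 for all sums. The calls and their direction rested on the libraries and the scaling. Without control replicate 1, 247 sums were called higher and 255 lower (15.2% and 11.9% of all sums), without control replicate 2, 360 and 307 (20.1% and 16.6%), and without either knockdown library 0, while library-size scaling gave 17 higher and 1 lower.

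In each of the 4 host sums with the smallest p-values both knockdown libraries were above both controls. PPP4R3B, a regulatory subunit of protein phosphatase 4, had 22 such circles with 7 and 9 counts in the controls and 57 and 81 in the knockdown libraries. That is 1.55 ± 0.0957 against 20.5 ± 0.410 per 100000 (SD, n = 2 each), a log2 fold change of 3.76 ± 0.41 (adjusted p = 0.0225). No PPP4R3B circle dominated, as the largest held 13.6% of the counts, and 6 of the 22 held at least 10 counts. CCDC7 was the opposite in make-up: 17 and 35 against 145 and 247 counts in 14 circles (3.60 ± 0.40, adjusted p = 0.0225), of which the 6-exon circle described above held 83.3%. NCKAP1, a subunit of the WAVE complex that drives actin branching, had 45 circles with 10 and 18 against 74 and 123 counts (3.48 ± 0.40, adjusted p = 0.0225). EXOC6 had 16 circles with 4 and 10 against 54 and 96 counts (4.08 ± 0.47, adjusted p = 0.0225).

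Others of the 32 were VPS13A, VPS13C, VPS50, SNX13, ARFGEF1, EXOC5, CEP70, CEP162, HAUS6, FANCB, REV3L, ESCO1, ORC3, XPO1, THOC2, ZFC3H1, EIF3E, ANKRD26, DNAJC10, UGGT2, SWT1, GSAP, SLC12A2, CASD1, BLTP3B, RALGAPA1 and FAM135A. For the 30 with over 3 control counts the log2 fold changes ran from 2.28 to 4.44. EXOC5, another exocyst subunit, had 0 and 0 counts in the controls and 14 and 15 in the knockdown libraries. By the floor used for the EXOC6 circle, and with the same limits, it was at least 7.49-fold higher. CASD1 had 1 and 0 against 20 and 25, a ratio of 68.8 (95% exact interval 11.7 to 2776). XPO1 had the most counts, 116 and 368 against 784 and 1310 (2.86 ± 0.48, adjusted p = 0.0436). These hosts gave 7 to 45 circles each, and in 11 of the 32 a single circle held over 50% of the counts.

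**Figure D4:**
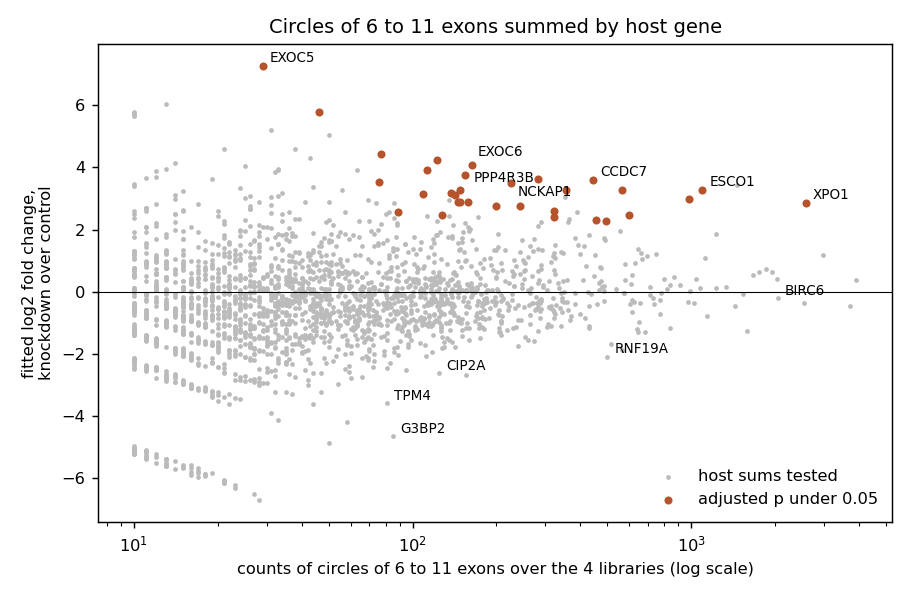
Fitted log2 fold change (vertical axis, knockdown over control) against total counts over the 4 libraries (horizontal axis, log scale) for the 2244 host sums of circles of 6 to 11 exons. The 32 coloured points, with an adjusted p under 0.05, all lie above 2, whereas the hosts named below 0 are grey. Points in the lowest and highest bands at few counts have a group at 0, where the fitted value depends on the prior count.

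In the same 32 hosts the circles of other sizes mostly went the same way. Where a sum could be tested, the log2 fold change was positive for 28 of 28 sums of 2 to 5 exons (6 called), 28 of 28 sums of circles with several isoforms (11 called), 23 of 26 sums of 12 or more exons (4 called) and 6 of 9 single-exon sums (1 called). These sums share libraries, and the hosts were picked on the size class in question, so the counts describe the 32 hosts and support nothing beyond them.

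No host sum fell at the threshold, and the 4 lowest by p-value were just outside it. RNF19A held 204 and 232 counts in 19 circles in the controls and 34 and 29 in the knockdown libraries (−2.08 ± 0.38, adjusted p = 0.0521). G3BP2, a stress granule protein gene, had 57 and 26 against 1 and 1, a ratio of 0.0368 (95% exact interval 0.00439 to 0.137), and an adjusted p of 0.0599. TPM4 had 43 and 34 against 1 and 3 (−3.58 ± 0.70, adjusted p = 0.0608) and CIP2A 35 and 78 against 4 and 7 (−2.62 ± 0.53, adjusted p = 0.0679). Groups did not overlap in any of the 4. RNF19A passed the threshold under library-size scaling (adjusted p = 0.0484).

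None of the 5 hosts with the most circles of this size passed the threshold. BIRC6 summed to 134, 124, 114 and 101 counts per 100000 (log2 fold change −0.21 ± 0.32, adjusted p = 0.777), and its most abundant circle, of 11 exons (chr2:32478635-32500109), stood at 36.8, 40.6, 40.3 and 32.8. USP34 gave 21.8, 44.9, 33.2 and 41.2 (adjusted p = 0.782), SYNE2 46.8, 104, 72.5 and 85.5 (adjusted p = 0.863) and CEP192 57.4, 68.1, 44.6 and 51.5 (adjusted p = 0.648). DNAH14 had both knockdown libraries above both controls, at 24.6, 34.7, 63.0 and 66.3 (1.20 ± 0.33, adjusted p = 0.134). Its other circles stood at 112 and 204 per 100000 in the controls and 857 and 1052 in the knockdown libraries.

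Whether the size classes of a gene changed unequally was tested within each host. No host passed: 0 of 2004 hosts with the class, and 0% of all 2624, had an adjusted p under 0.05 (edgeR diffSpliceDGE F test), with 238 at an unadjusted p under 0.05 and none by Simes' method. The 4 smallest shared an adjusted p of 0.0587. In KITLG, the gene of the ligand of the KIT receptor, circles of 6 to 11 exons held 86.3% and 90.6% of the gene's counts in the controls (215 of 249 and 222 of 245) and 53.6% and 55.0% in the knockdown libraries (74 of 138 and 104 of 189). In ATRX, a chromatin remodeler, the shares were 26.2% and 37.4% against 12.4% and 12.7%. Its counts were 17 of 65 and 49 of 131 against 31 of 250 and 48 of 377. In MBNL2, a splicing regulator, the shares were 35.8% and 40.0% against 11.7% and 11.5% (19 and 10 counts against 7 and 10). SDAD1 moved less, from 16.5% and 11.7% to 11.2% and 10.0%. Its counts were 14 of 85 and 12 of 103 against 22 of 196 and 27 of 270. In each of the 4 hosts the shares of the knockdown libraries were close to each other and lay below both controls. Per library count, however, the ATRX and SDAD1 circles of 6 to 11 exons were higher in both knockdown libraries. A lower share was thus not a loss of such circles in these genes. Without control replicate 1 the count was 322 (19.4%, against 18.8% of all hosts tested), without control replicate 2 it was 388 (23.4%, as of all hosts), and with at least 40 counts 19 hosts passed (2.07%, against 2.16%).

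Gene lists are described by the counts and the median of their host sums, next to −0.32 for the whole class, and no test compares them with other genes. The medians depended on the control libraries: without control replicate 2 they were 1.23 for DNA damage, 1.07 for mitosis, 0.70 for widely studied hosts, 0.49 for the centrosome and 0.48 for membrane traffic, beside −0.08 for the class. Of the 65 genes of membrane traffic and tethering, 55 had such circles and 50 had sums tested, of which 7 rose and 0 fell: EXOC5, EXOC6, VPS13A, VPS13C, VPS50, a tether of endosomal recycling, SNX13, a sorting nexin, and ARFGEF1, an exchange factor for ARF GTPases. Over all sums 1.44% were called higher. The median was 0.43. With library-size scaling the median was 0.17, beside −0.57 for the class, and 3 of the sums passed. VPS50 held 5 and 29 counts against 110 and 137 (3.62 ± 0.60, adjusted p = 0.0433) and SNX13 5 and 16 against 42 and 85 (3.27 ± 0.52, adjusted p = 0.0377). All circles of the list together gave 278, 494, 714 and 716 per 100000, with control replicate 1 the lowest. The LRBA circle of 11 exons, from a gene of vesicle trafficking (chr4:150896394-150916738), was its most abundant after PICALM and held 12 and 38 against 73 and 105 counts (2.50 ± 0.45, adjusted p = 0.101). Of the list's 129 circles tested singly, 28 were higher and 1 lower at an unadjusted p under 0.05, against 9.42% and 4% of all circles tested.

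For kinetochore and mitosis genes, 0 of 43 sums passed, with 11 higher and 3 lower at an unadjusted p under 0.05 and a median of 0.45 (0.20 with library-size scaling). At that unadjusted p, 10% of all sums were higher and 7.47% lower. The 0 holds for the genes listed only, as the called sums of HAUS6 and ESCO1 were not on this list. KIF11, the spindle kinesin, had 10 and 31 counts in the controls and 51 and 80 in the knockdown libraries (2.39 ± 0.47, adjusted p = 0.0629). KIF20B, a kinesin of cytokinesis, had 6 and 54 against 99 and 193 (3.03 ± 0.72, adjusted p = 0.102). STAG1, a cohesin subunit, had 72 and 324 against 355 and 479 (1.86 ± 0.55, adjusted p = 0.160). Per library count all of these were higher in both knockdown libraries, and control replicate 1 was again the lowest of the 4. They were picked after their values were seen, so their shared direction does not describe the list, whose 3 lower sums are not named.

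DNA damage genes had 2 sums called of 37, FANCB and REV3L, the catalytic subunit of translesion polymerase zeta, and 0 lower. Over all sums 1.44% were called higher and 0.0106% lower. REV3L had 21 and 56 counts against 98 and 146 (2.39 ± 0.43, adjusted p = 0.0495). BRCA2, the mediator of homologous recombination, had 5 and 13 against 32 and 30 (2.51 ± 0.53, adjusted p = 0.0758). The list's median was 0.08, and it was −0.19 under library-size scaling, where 1 sum passed, and 0.53 without knockdown replicate 1. ATM and ATR, the apical damage kinases, had adjusted p-values of 0.179 and 0.198, and BRCA1 0.202.

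The centrosome and cilium list had 2 sums called of 38, CEP70 with 19 and 27 against 72 and 126 counts (2.76 ± 0.38, adjusted p = 0.0253) and CEP162 with 3 and 14 against 40 and 52 (3.15 ± 0.57, adjusted p = 0.0496). The share called higher over all sums was 1.44%. The list's median was −0.06, and 0.33 without control replicate 1, and 1 sum passed under library-size scaling. The most abundant circle of the list, of 8 exons from CEP192, held 71 and 73 against 60 and 63 counts (adjusted p = 0.701), and the next, of 9 exons from CEP70, 7 and 21 against 46 and 74 (2.74 ± 0.47, adjusted p = 0.0927).

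Splicing factors and hnRNPs had the lowest median of the 8 lists and no call. Of 24 sums tested 0 rose and 0 fell, 0 were higher and 4 lower at an unadjusted p under 0.05, and the median was −0.91 (−1.19 with library-size scaling, −0.61 without control replicate 1). At that unadjusted p, 10% of all sums were higher and 7.47% lower. Of the list's 31 circles tested singly, 2 were higher and 1 lower at an unadjusted p under 0.05, against 9.42% and 4% of all circles tested. RBM39 had 21 and 48 counts against 4 and 6 (−2.04 ± 0.59, adjusted p = 0.151), RBM26 47 and 41 against 7 and 11 (adjusted p = 0.159), HNRNPC 65 and 20 against 4 and 6 (adjusted p = 0.183) and HNRNPLL, the paralog of HNRNPL, 31 and 49 against 12 and 10 (−1.13 ± 0.48, adjusted p = 0.282). All circles of the list gave 135 and 109 per 100000 in the controls and 73.2 and 71.7 in the knockdown libraries, so here control replicate 1 was the highest. The most abundant circle, of 6 exons from PTBP2, a neuronal paralog of the polypyrimidine tract binding protein, held 43 and 71 against 44 and 56 counts (adjusted p = 0.555). The 8-exon circle of HNRNPLL held 21 and 38 against 8 and 5 (−1.51 ± 0.54, adjusted p = 0.313).

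Chromatin regulators (43 sums) and ubiquitin ligases and deubiquitinases (54 sums) had 0 calls, against 1.44% of all sums called higher, with medians of −0.24 and −0.16. Both lists had members in either direction. SUZ12, a Polycomb subunit, had 9 and 22 against 42 and 49 counts (2.28 ± 0.45, adjusted p = 0.0627), while SMARCC1, of the BAF remodeler, had 59 and 72 against 11 and 17 (−1.55 ± 0.39, adjusted p = 0.113). CUL5, a cullin, had 2 and 3 against 14 and 15 (3.17 ± 0.70, adjusted p = 0.0844), while UBR1 had 113 and 113 against 22 and 25 (−1.59 ± 0.37, adjusted p = 0.0963). Among hosts of widely studied circles, 14 sums were tested and XPO1 rose, a call lost under library-size scaling. FNDC3B had 78 and 94 against 16 and 30 (−1.25 ± 0.38, adjusted p = 0.166), and VRK1 249 and 765 against 362 and 580 (adjusted p = 0.484). The EP300 circle of 7 exons, from an acetyltransferase gene, held 47 and 19 against 34 and 30 counts (adjusted p = 0.789), the KAT6A circle of 6 exons, from another, 32 and 45 against 12 and 12 (−1.07 ± 0.43, adjusted p = 0.357).

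**Figure D5:**
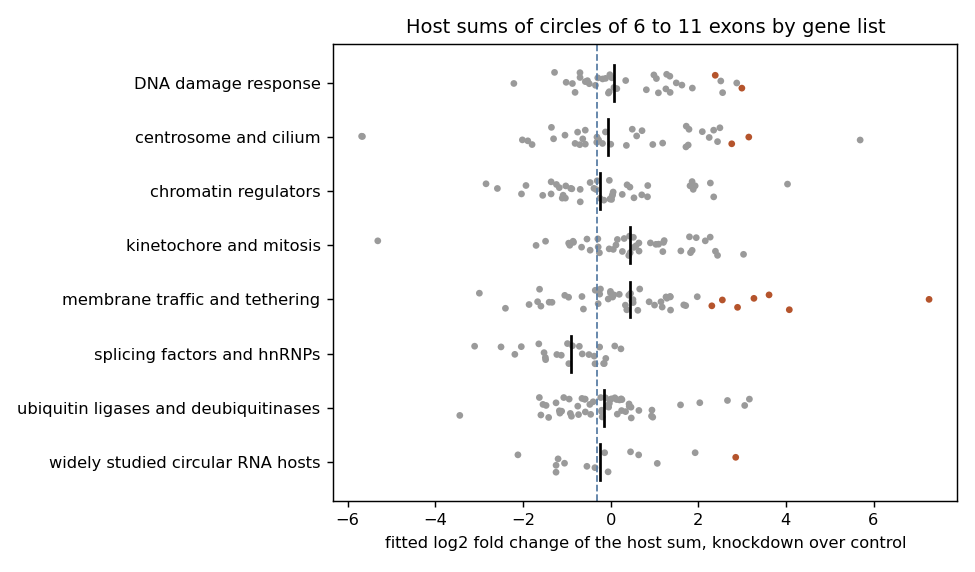
Fitted log2 fold change of the host sums of circles of 6 to 11 exons (horizontal axis, knockdown over control) in the 8 gene lists, 1 point per host, coloured where the adjusted p was under 0.05. Black bars mark list medians, from −0.91 for splicing factors to 0.45 for mitosis, and the dashed line marks the class median of −0.32.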

How the data were processed

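Total RNA was reverse transcribed with a rolling enzyme, amplified with phi29, debranched and sequenced on Nanopore, per the labels' protocols. The table holds raw counts per circular isoform in 4 libraries, deposited by the authors without molecular identifiers, so counts are not independent molecules and intervals cover counting error only. The build is GRCh38.p14 and DESeq2 is named, per the submitters' processing notes. The aligner, the circle caller and its filters are not given in the sources used here, and a second deposited table of CPM was not used. No table column belonged to another sample (0 columns).

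Counts were tested with edgeR 4.0.16 in R 4.3.3 (TMM, quasi-likelihood F test, knockdown against control, no covariate) on rows whose 4 libraries summed to 10 counts or more, with Benjamini-Hochberg adjustment over all rows tested at 0.05. Host sums add counts by host and exon-number class, and diffSpliceDGE tested class shares within hosts. Levels are counts per 100000 counts of the library. Single values were compared by exact permutation over libraries with scipy 1.17.1, and depth was equalised by thinning to 282737 counts (mean of 10 draws). A count of 0 was taken to allow 3 counts. Scripts were tested on simulated data. Alternatives were library-size scaling, DESeq2 size factors, DESeq2 1.42.0, other count filters, edgeR's newer dispersion method, exon circles only, a replicate block, and each library left out. The labels give no batch. Control and knockdown share replicate numbers, but no label ties them, so the numbers were taken as names.

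The members, the gene lists and the tests were chosen with earlier results of these data known. Named were the 10 most abundant circles, the 6 higher and 6 lower circles with the smallest p-values among those with groups apart, the most abundant circle of each exon number, the 5 hosts with most circles, the 4 higher and 4 lower host sums, the 4 hosts with the most unequal shares, the 2 most abundant circles of each gene list and called host sums, of which 1 is not reported here. KIF11, KIF20B, STAG1, BRCA2, ATM, ATR, BRCA1, VRK1, SUZ12, SMARCC1, CUL5, RBM39, RBM26, HNRNPC and FNDC3B host sums, the shared splice sites and the longest shared runs were chosen after their values were seen. Sequence beside the back splices was not analysed here.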

Additional observations from a re-analysis of the deposited data

How the results depend on the processing

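Called circles of 6 to 11 exons, 0 in the test reported, are given here with the calls among all circles tested in brackets. Unfiltered, 67 of 27724 were called (471 of 190152), and from 40 counts upward 95 of 793 (617 of 4944). Where 2 libraries each needed 5 counts, 257 of 2201 were called (1404 of 11711). DESeq2 called 164 of 3970 (1052 of 21576), and exon circles only gave 89 of 3970 (452 of 14730). With the replicate number as a block 253 of 3970 were called (1653 of 21576). Called circles of the class stayed at 0 with library-size scaling, DESeq2 size factors and the newer dispersion method. With each library left out they ranged from 0 to 939. Called host sums, 32 as reported, numbered 18 with library-size scaling, 147 unfiltered, 54 where 2 libraries each needed 5 counts, 66 from 40 counts upward, 56 with DESeq2 and 0 with the replicate block, and from 0 to 667 with each library left out. All 32 were called by DESeq2 too, while 15 were lost with library-size scaling and 6 (EIF3E, ARFGEF1, HAUS6, EXOC5, REV3L and CEP162) with the newer dispersion method. Hosts with a changed class share numbered 19 with at least 40 counts, 0 with the replicate block, and from 0 to 388 with each library left out. Circles with groups apart numbered 984 higher and 914 lower of 3970 with at least 10 counts. The share over all circles at that filter was not computed, so these counts show nothing particular to the class. The cause of these shifts was not tested.

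The difference in mean exon number was 0.0890 within replicate number 1 and −0.0295 within number 2 (replicate block), and −0.0112 to 0.0707 with each library left out. The difference in the share of counts ranged from −0.712 without control replicate 1 to 2.33 points without control replicate 2, and was −0.486 within number 2. The difference in median length ranged from −18 to 5 nt with each library left out. Same-numbered libraries deviated together with a correlation of 0.0706 over 4944 circles, so the block has no support as a pairing. The 12 named circles and 8 named host sums kept their direction in the alternatives run, which for host sums did not include exon circles only. List medians, an alternative chosen after seeing the data, moved by less than the spread of the leave-one-out values in 80 of 112 comparisons. Depth limits the rest: with 282737 to 556578 counts a library, a circle with 0 counts may still reach 0.539 to 1.06 per 100000.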
